A study of Mus musculus with 12 samples.

Results

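The genes described here are 38 transcripts of the intestinal epithelium, measured in B cells purified from Peyer's patches (PP) of mice after stroke or sham surgery. They were taken by name from the table of 36175 genes and cover the surface and junctions of epithelial cells (7 genes), keratins and the brush border (5), enterocytes (11), goblet and other secretory cells (7), crypt, follicle-associated and transport functions (4) and epithelial transcription factors (4). All 38 were found in the table. The 38 were chosen as genes of the epithelium, and whether B cells themselves express any of them at a low level was not tested. The questions were how much epithelial RNA each B cell preparation carried and whether its genes moved together from mouse to mouse. It was also asked whether the amount of this RNA differed between stroke and sham mice.

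Male wild-type C57BL/6JHsd mice, 10 to 12 weeks old, underwent either sham surgery or transient occlusion of the middle cerebral artery for 1 h, and PP B cells were collected 18 h later. There were 6 mice in each group, and each library came from 1 mouse. The group called brain injury in the sample labels is called stroke here, and no mouse carried a transgene. The study's methods describe buprenorphine before and carprofen after the stroke surgery, and otherwise the same protocol for sham surgery apart from the placing of the filament. B cells were enriched by depletion of other cells with magnetic beads. After this step the study's methods describe a small remainder of intestinal epithelial and endothelial cells. The cells were then selected on CD45, a surface protein of leukocytes that epithelial cells lack, and the methods report nearly pure B cells at the end.

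The small intestine is lined by a single sheet of epithelial cells that renews itself from stem cells in the crypts. Enterocytes absorb nutrients across a brush border of microvilli, goblet cells secrete the mucus layer, and cadherins, claudins and EPCAM hold neighbouring cells together over a scaffold of keratin filaments. PP are lymphoid follicles beneath a specialised stretch of this sheet, the follicle-associated epithelium, in which M cells carry luminal material to the B cells below and neighbouring cells release the chemokine CCL20. The transcription factors CDX1, CDX2 and HNF4A keep intestinal epithelial cells in their identity.

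Levels are given in normalised TPM, a measure of transcript abundance that corrects for transcript length and was scaled further by the authors, so that levels of different genes can be set side by side. The 12 columns of the table summed to between 559570 (sham mouse 6) and 1404340 (sham mouse 1), and the read depth is unknown. The B cell label was borne out by B cell genes: Cd79a, a signalling chain of the B cell receptor, lay between 222 and 683 normalised TPM over the 12 mice, and Cd22, an inhibitory receptor of B cells, between 456 and 859. Endothelial genes were nearly absent, with 8 of 10 at a mean under 1 and Cdh5, the endothelial cadherin, between 0.212 and 2.93. Pecam1, which leukocytes also express, lay between 77.1 and 105 normalised TPM. Stromal genes averaged under 1 for 9 of 10. Sham mouse 6 stood apart among the sham mice, with the lowest sham level of every member but Ccl20, and the main comparison is given with and without it.

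Promoter sequence is shown for 4 enterocyte members whose levels moved together across mice, to place the intestinal factors named above in genomic context. Each window is 300 bases of the RefSeq sequence table for build GRCm38.p6, from 250 bases before the transcription start to 50 after it, written 5' to 3' on the strand of the gene. Capitals mark every match, on either strand, to the letters TTTATG (a short form of the CDX binding motif), GTTAAT (a short form of the HNF1 motif) or CAAAGTNCA (a short form of the HNF4 motif), with N for any base. Windows are given for Sis (chr3:72967814-72968113, minus strand), Fabp1 (chr6:71199629-71199928, plus strand), Fabp2 (chr3:122894822-122895121, plus strand) and Alpi (chr1:87101557-87101856, minus strand).
Sis: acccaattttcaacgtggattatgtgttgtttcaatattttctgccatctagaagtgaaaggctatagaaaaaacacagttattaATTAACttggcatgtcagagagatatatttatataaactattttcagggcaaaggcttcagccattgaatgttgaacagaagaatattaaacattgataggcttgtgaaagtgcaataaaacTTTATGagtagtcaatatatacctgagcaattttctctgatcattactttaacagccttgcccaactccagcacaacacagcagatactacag
Fabp1: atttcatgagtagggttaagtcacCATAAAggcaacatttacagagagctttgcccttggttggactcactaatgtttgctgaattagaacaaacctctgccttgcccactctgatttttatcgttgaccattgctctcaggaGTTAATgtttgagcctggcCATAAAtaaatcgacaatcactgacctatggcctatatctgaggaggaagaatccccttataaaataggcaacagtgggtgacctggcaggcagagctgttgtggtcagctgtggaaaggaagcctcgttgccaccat
Fabp2: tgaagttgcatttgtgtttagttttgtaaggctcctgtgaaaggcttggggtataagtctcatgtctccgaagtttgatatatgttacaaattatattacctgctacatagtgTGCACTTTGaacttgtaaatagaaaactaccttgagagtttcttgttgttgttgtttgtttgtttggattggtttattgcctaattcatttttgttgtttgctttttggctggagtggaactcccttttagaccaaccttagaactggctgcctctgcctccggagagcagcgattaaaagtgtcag
Alpi: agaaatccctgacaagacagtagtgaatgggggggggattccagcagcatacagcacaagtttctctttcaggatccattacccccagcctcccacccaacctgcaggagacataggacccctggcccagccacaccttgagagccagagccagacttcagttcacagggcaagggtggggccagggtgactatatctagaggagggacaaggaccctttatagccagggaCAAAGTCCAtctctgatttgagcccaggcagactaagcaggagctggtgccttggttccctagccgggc

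Sis held a CDX match starting 43 bases before the transcription start and an HNF1 match 165 bases before it. Fabp1 held CDX matches starting 88 and 226 bases before the start, with an HNF1 match at 107 bases. The single matches in the other windows were to the HNF4 motif, 137 bases before the start of Fabp2 and 19 bases before that of Alpi. Of the members, 30 had promoter windows in the RefSeq table, 32 windows in all. The CDX letters were present in 7 of the 32 windows and in 11.9% of all 32851 windows of the same length, the HNF1 letters in 8 of 32 and in 7.1% of all, and the HNF4 letters in 3 of 32 (Alpi, Apoa4 and Fabp2) and in 1.41% of all. These are matches of letters and not measured binding sites, and the spellings were chosen after several had been counted.

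Every preparation carried RNA of these epithelial genes, in amounts that differed widely between mice of the same group. Summed over the 38 genes, the level in the sham mice 1 to 6 was 6534, 6540, 726, 947, 2215 and 71.6 normalised TPM. In the stroke mice 1 to 6 it was 3478, 1301, 120, 71.1, 149 and 895 normalised TPM. Sham mice 1 and 2 were the highest, sham mouse 6 and stroke mouse 4 the lowest, and the ranges of the groups overlapped. The low end of the sham range was sham mouse 6 alone, and stroke mice 3, 4 and 5 lay below the other 5 sham mice. The highest and lowest mice differed 91.9-fold. As a share of the mouse's total, the 38 genes took between 0.0128% and 0.472% in sham mice and between 0.00884% and 0.341% in stroke mice.

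**Figure D1:**
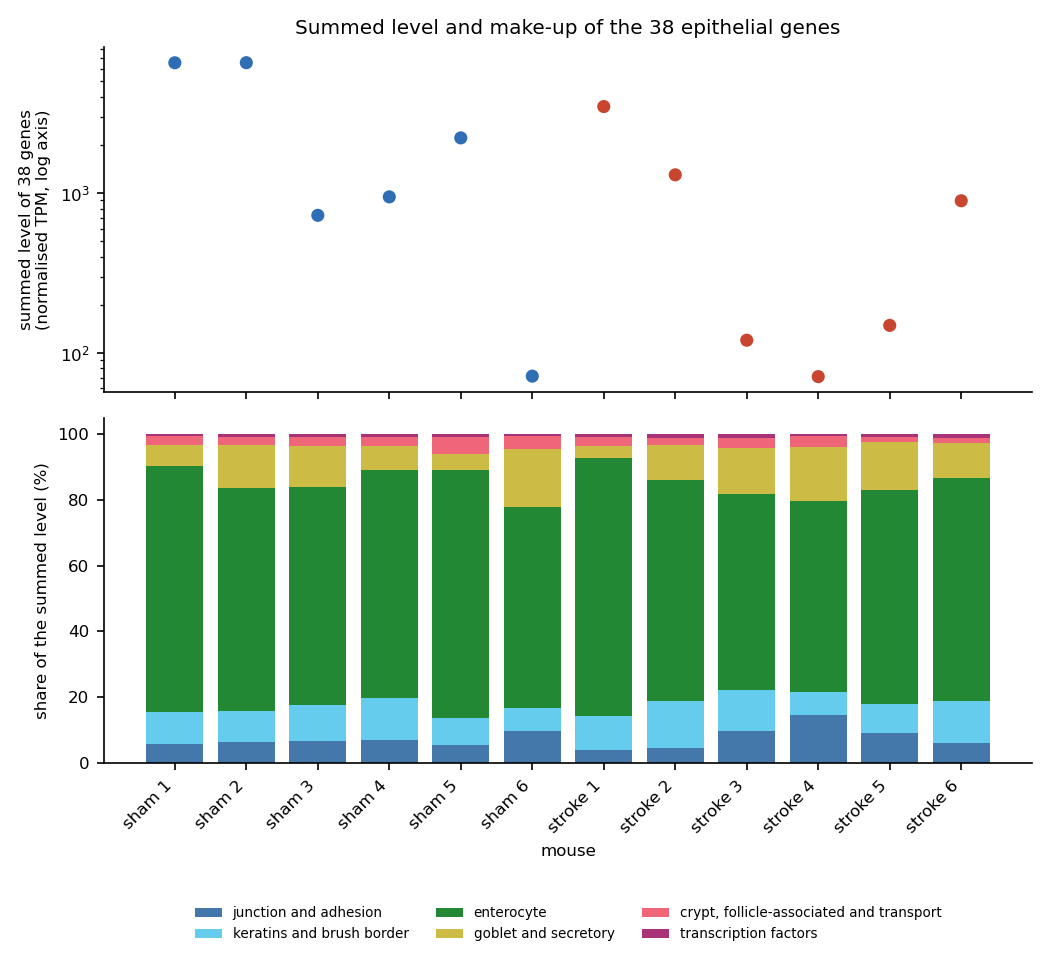
The upper panel shows the summed level of the 38 epithelial genes in each mouse (normalised TPM, log axis; blue, sham; red, stroke), and the lower panel the share of that sum in percent taken by each of the 6 gene groups. The sum runs from 71.1 to 6540.2 normalised TPM, and the enterocyte share from 58.0% to 78.5%, of which Lgals4 makes up the larger part in sham mouse 6.

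The mean of the log2 sum was 10.3 ± 2.44 (SD, n = 6) in sham mice and 8.70 ± 2.25 (SD, n = 6) in stroke mice, a difference of -1.64 that is smaller than the SD of either group. Without sham mouse 6 the sham mean was 11.2 ± 1.496 (SD, n = 5) and the difference -2.47, larger than both SDs. Leaving out the lowest sham mouse can only widen this difference, and over single mice left out it ran from -2.47 to -1.13, the latter without stroke mouse 4. Enterocyte genes took 60.9% to 75.5% of the sum in sham mice and 58.0% to 78.5% in stroke mice. In the mice with the least epithelial RNA, Lgals4, a galectin of the intestinal lining, took much of that share, 35.3% of the sum in sham mouse 6 and 27.9% in stroke mouse 4 against 2.85% in sham mouse 2. Without Lgals4 the enterocyte share of the remaining sum was 39.6% in sham mouse 6 and 64.3% to 74.6% in the other sham mice, and 41.8% to 77.5% in stroke mice. Junction genes took 5.43% to 9.68% in sham mice and 3.86% to 14.7% in stroke mice. Goblet and secretory genes took 4.88% to 17.7% in sham mice and 3.85% to 16.3% in stroke mice. In bulk RNA, fewer epithelial cells cannot be told apart from less RNA per epithelial cell.

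Among single members, 19 were highest in sham mouse 1, 18 in sham mouse 2 and 1, Gp2, in sham mouse 4. The lowest value fell in sham mouse 6 or in stroke mouse 3, 4 or 5 for 36 of the 38. Ccl20, not counted among these, was at 0 in sham mouse 3 and in stroke mice 3 and 5 alike, and Olfm4 was lowest in stroke mouse 2. In 20 members at least 1 stroke mouse lay below sham mouse 6. Over the 32 members above 0 in every mouse, the highest mouse exceeded the lowest by a median of 145-fold. This fold ran from 15.8 for Lgals4 to 1007 for Alpi, the alkaline phosphatase of the brush border.

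**Figure D2:**
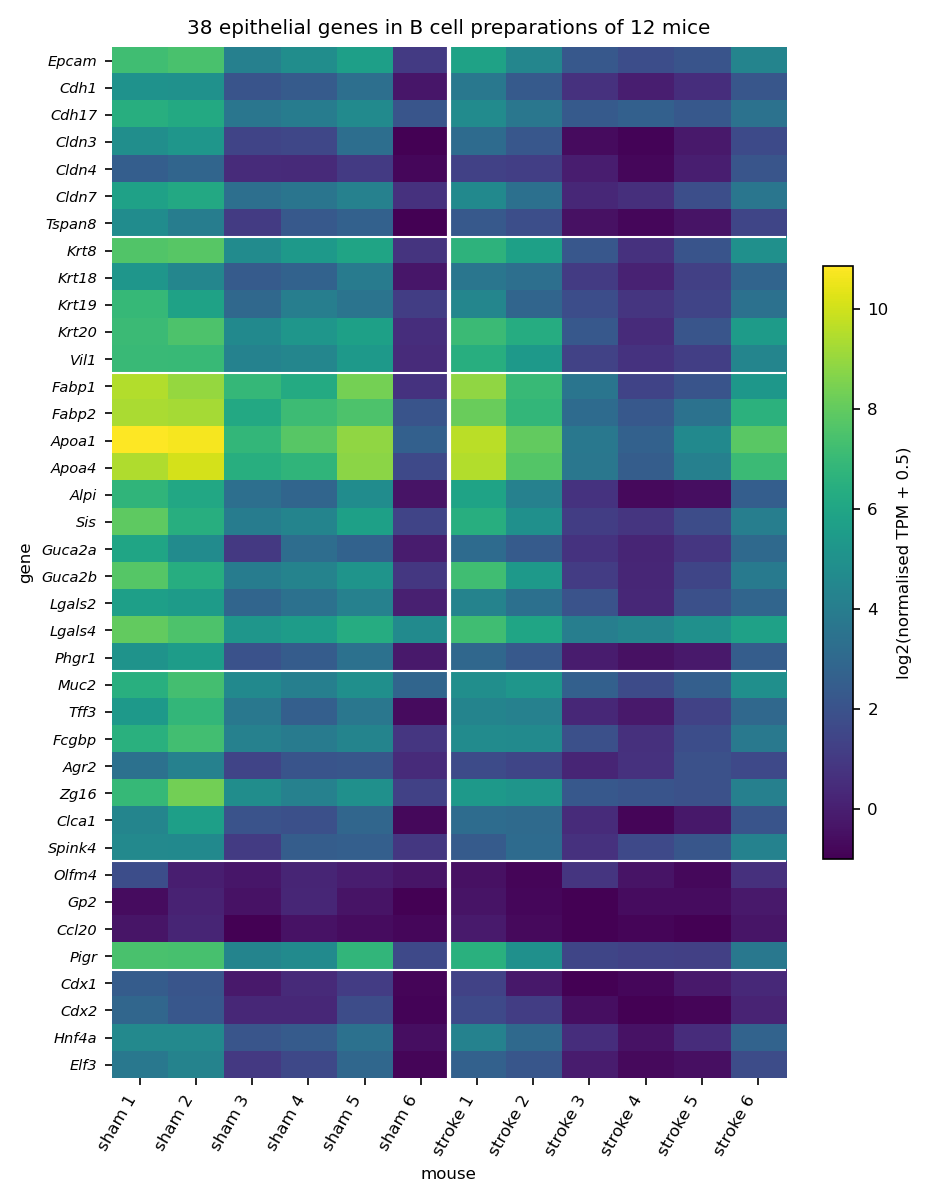
Each row is 1 of the 38 epithelial genes, grouped by role from junction genes (top) to transcription factors (bottom), and each column 1 mouse; colour gives log2(normalised TPM + 0.5). Sham mice 1 and 2 and stroke mouse 1 are bright over most rows, and sham mouse 6 and stroke mice 3, 4 and 5 are dark over the same rows.

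Stroke was compared with sham gene by gene with limma, a linear model with a moderated test, on log2(normalised TPM + 0.5) over the 15624 genes with a mean of at least 1, of which 35 were members. None of the 35 passed an unadjusted p of 0.05 in either direction, while of all genes tested 1.6% (250) were lower and 4.29% (670) higher in stroke at that threshold. No member passed with Benjamini-Hochberg adjustment over all genes, where the smallest adjusted p was 0.789, and 0.0064% of all genes (1 gene, Gm9406) did. The fold change, stroke minus sham on the log2 scale, was below 0 for all 35, with a median of -1.43 beside 0.01 over all genes tested. The members varied together across the same mice, so that their fold changes are not 35 independent values. In no member did the sham and stroke values separate without overlap, which happened in 0.416% of all genes tested.

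**Figure D3:**
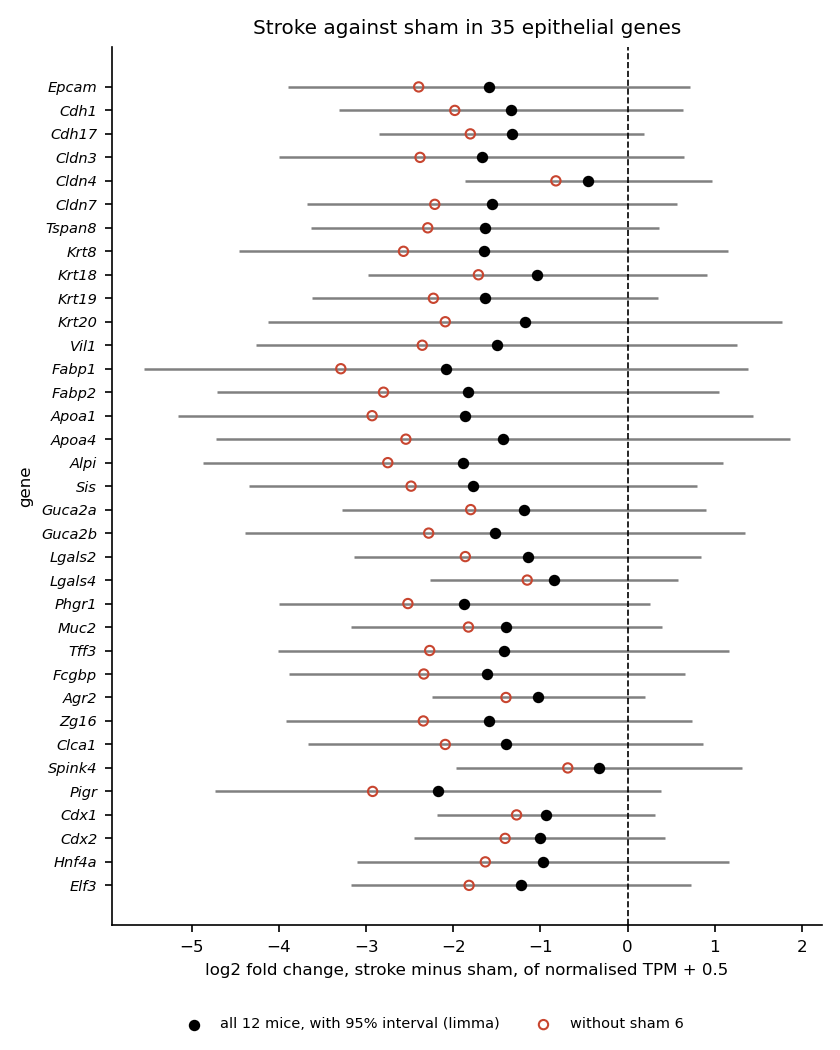
Points give the log2 fold change of 35 epithelial genes, stroke minus sham, on the log2(normalised TPM + 0.5) scale with 95% intervals (limma, 6 mice per group); open circles give the same value without sham mouse 6. All 35 intervals cross 0, and each open circle lies to the left of its filled point.

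The comparison depended on sham mouse 6, the lowest sham mouse for all 35 members in the fit. Leaving this mouse out can only lower their fold changes, so the counts without it are no independent support for a difference. Without sham mouse 6, 26 of the 35 members in the fit were lower in stroke at an unadjusted limma p under 0.05. The share over all genes tested had then risen to 8.33%, and the median fold change of the members was -2.23. Still no member passed after adjustment, with a smallest adjusted p of 0.29997. Without sham mouse 2, in place of sham mouse 6, the median was -0.94. Leaving out stroke mouse 1, the stroke mouse with the most epithelial RNA, gave 4 members (Pigr, Cdh17, Krt19 and Phgr1) against 2.55% of all genes, and leaving out any other single mouse gave 0. The smallest p that an exact permutation test of 6 against 6 allows is 0.0022, and over the 38 members its two-sided p ran from 0.108 to 0.690. Without sham mouse 6 it ran from 0.0260 to 0.413 over 462 assignments. At an exact p under 0.05, 7 of the 35 members in the fit were then lower in stroke, against 7.35% of all genes tested by the same permutation test. In no member did the groups separate without sham mouse 6, against 1.91% of all genes tested. With limma's sample quality weights and all 12 mice, 7 members were lower against 4.16% of all genes, with a smallest adjusted p of 0.424.

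Junction and adhesion genes were present at moderate levels. Epcam, the adhesion molecule of epithelial cells, lies on chromosome 17 from 87635979 to 87651129 (GRCm38, plus strand). Its lowest, median and highest levels were 1.53, 39.1 and 177 normalised TPM in sham mice and 3.02, 12.3 and 56.3 in stroke mice. All 6 stroke values lay inside the sham range, whose lower end was set by sham mouse 6 alone. The log2 fold change was -1.59 (SE 1.06, 95% interval -3.90 to 0.72; limma adjusted p = 0.791; exact permutation p = 0.197). Without sham mouse 6 it was -2.40, at an unadjusted limma p of 0.0159.

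Cdh1, which encodes E-cadherin of the adherens junction, had a lowest, median and highest level of 0.310, 7.08 and 32.0 normalised TPM in sham mice and of 0.508, 2.54 and 12.8 in stroke mice. Cdh17, a cadherin of the intestinal lining, ran through 3.90, 20.2 and 86.3 in sham mice and 4.37, 8.07 and 26.1 in stroke mice. Cdh17 varied less than most members, 22.1-fold between the highest and the lowest mouse, and had the second smallest limma p of the members (0.0816; log2 fold change -1.33, SE 0.70). The tight junction genes Cldn3, Cldn4 and Cldn7 and the tetraspanin gene Tspan8 had fold changes of -1.67, -0.45, -1.56 and -1.63. Cldn3 and Tspan8 were listed at 0 in sham mouse 6 only. The stroke median of Cldn4 was 1.15 normalised TPM against 1.19 in sham mice, the closest pair of medians in relative terms.

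Keratins and the brush border were highest in sham mice 1 and 2 and lowest in sham mouse 6 and stroke mouse 4 when summed over the 5 genes. Krt8, a keratin of simple epithelia, had a lowest, median and highest level of 1.204, 50.3 and 222 normalised TPM in sham mice. In stroke mice its levels were 1.09, 17.2 and 101 normalised TPM. Its partner Krt18 was lower, with medians of 10.4 in sham and 4.22 in stroke mice, and the fold changes of the pair were -1.65 and -1.04. Krt19 ran through 1.74, 13.9 and 123 normalised TPM in sham mice and 1.27, 4.92 and 21.5 in stroke mice. Krt20, the keratin of mature villus cells, reached 185 in sham and 135 in stroke mice over medians of 44.97 and 24.4, and its lowest values were 0.951 and 0.864. Vil1, which encodes the villin that bundles actin in microvilli, had lowest, median and highest levels of 0.887, 30.7 and 129 in sham mice and 1.14, 11.4 and 87.4 in stroke mice. Stroke mouse 1 alone was near the 2 highest sham mice for Krt20 and Vil1. The fold changes of Krt19, Krt20 and Vil1 were -1.64, -1.17 and -1.50.

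**Figure D4:**
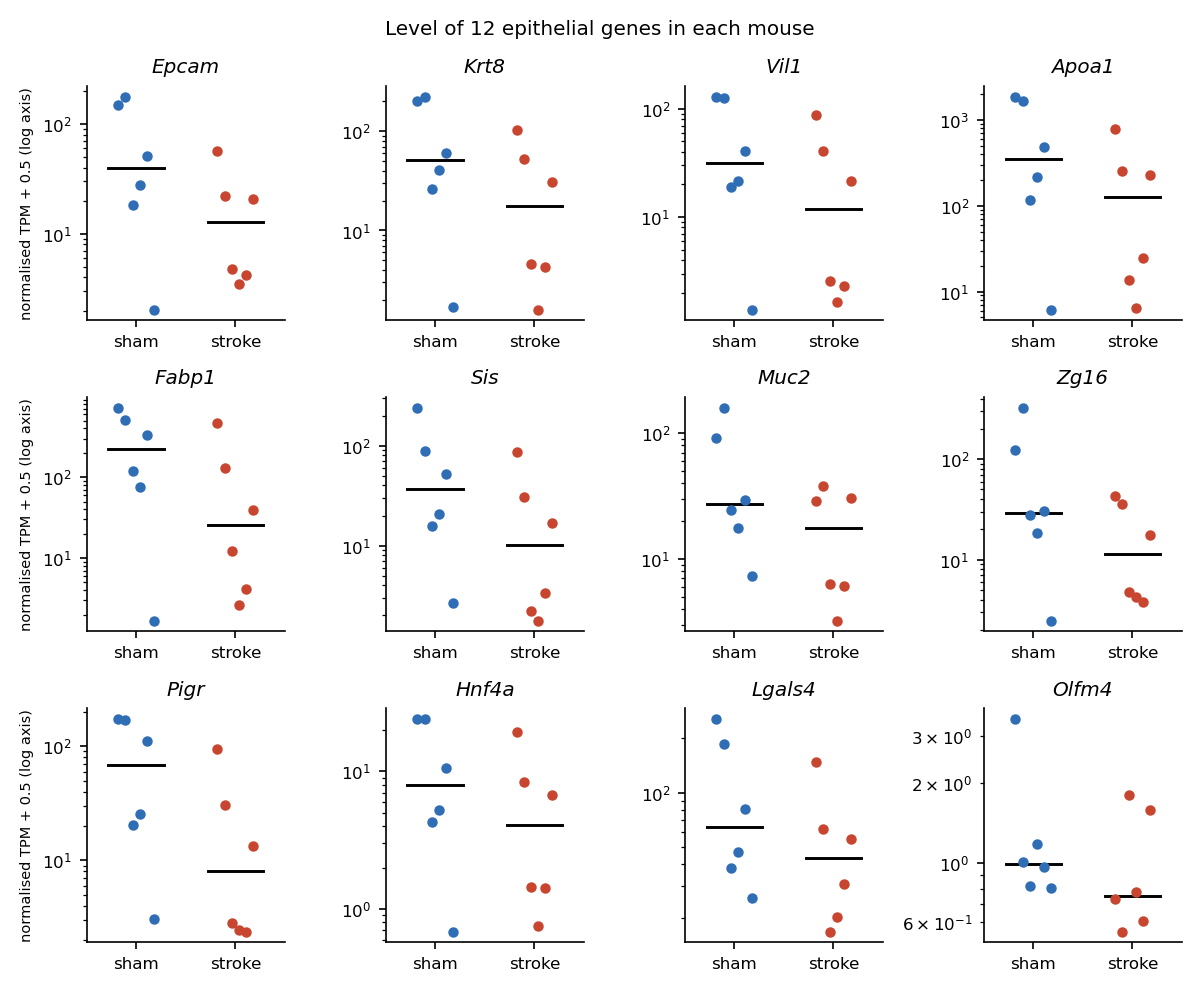
Each panel shows 1 of 12 epithelial genes; points are mice (blue, sham; red, stroke), bars are group medians, and the axis is normalised TPM + 0.5 on a log scale. In all 12 genes sham mouse 6 is the lowest sham value, far below the other 5 in most of them, and the stroke mice spread from near or below it up toward the highest sham mice. Olfm4 is low in all mice, with its highest value, 2.98 normalised TPM, in sham mouse 1.

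Enterocyte genes made up most of the epithelial RNA. Apoa1, an apolipoprotein of secreted lipid particles (chromosome 9, 46228580 to 46230466, GRCm38), was the most abundant member. Its lowest, median and highest levels were 5.64, 349 and 1859.7 normalised TPM in sham mice and 5.96, 125 and 787 in stroke mice. Sham mice 1 and 2 stood above all others, with 1859.7 and 1674 normalised TPM. Its neighbour Apoa4, on chromosome 9 from 46240696 to 46243459, had levels of 2.59, 279 and 1106 in sham mice and 5.24, 76.2 and 713 in stroke mice. The fatty acid binding proteins of enterocytes were next. Fabp1 ran through 1.18, 223 and 723 normalised TPM in sham mice and 2.12, 25.2 and 473 in stroke mice. Fabp2 ran through 3.79, 162 and 657 in sham mice and 4.38, 54.6 and 281 in stroke mice. The fold changes of Apoa1, Apoa4, Fabp1 and Fabp2 were -1.86, -1.43, -2.08 and -1.84, and their standard errors, from 1.33 to 1.595, were of similar size.

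The brush border enzymes were less abundant. Sis, sucrase-isomaltase, which splits dietary sugars, had lowest, median and highest levels of 2.16, 36.1 and 240 normalised TPM in sham mice and 1.27, 9.66 and 85.2 in stroke mice. Alpi ran through 0.263, 17.99 and 108 in sham mice and 0.108, 3.24 and 58.9 in stroke mice, the widest relative spread of any member above 0 in every mouse. Their fold changes were -1.77 and -1.89 (limma adjusted p = 0.791 and 0.806). Phgr1, a small protein of the intestinal lining, had the smallest limma p of all members (0.0789; adjusted p = 0.789) with a fold change of -1.87 (SE 0.98). Its levels were 0.368, 7.53 and 46.1 normalised TPM in sham mice and 0.219, 2.47 and 7.27 in stroke mice, and all 6 stroke mice lay below the sham median, as they did for Tspan8 and Agr2. Lgals4 kept a floor that the other enterocyte genes lacked, at 25.3 normalised TPM in sham mouse 6 and 16.3 in stroke mouse 3. Its medians were 63.4 and 42.5 and its highest levels 257 and 147 in sham and stroke mice, with a fold change of -0.84. Guca2a and Guca2b, which encode the gut peptides guanylin and uroguanylin, and the galectin gene Lgals2 had fold changes of -1.19, -1.52 and -1.15, none past the test.

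Goblet cell genes followed the enterocyte genes, with their own peak. Muc2, the gel-forming mucin of intestinal mucus, had lowest, median and highest levels of 6.82, 26.6 and 159 normalised TPM in sham mice. In stroke mice they were 2.72, 17.2 and 37.6 normalised TPM. Zg16, a lectin of the mucus layer, ran through 1.97, 28.9 and 325 in sham mice and 3.30, 10.8 and 42.7 in stroke mice. Tff3, the trefoil peptide of goblet cells, ran through 0.140, 12.7 and 116 in sham mice and 0.381, 4.84 and 19.95 in stroke mice. Sham mouse 2 was the highest of the 12 mice for all of these genes. Set against sham mouse 1, sham mouse 2 had 2.67 times as much Zg16, 2.78 times as much Tff3, 2.50 times as much of the goblet cell gene Clca1 and 1.76 times as much Muc2. All 7 goblet and secretory members were higher in sham mouse 2, down to a ratio of 1.02 for Spink4. Of the 11 enterocyte members, 9 were lower in sham mouse 2, from 0.363 times for Sis to 0.932 times for Fabp2, and 2 were higher, Apoa4 (1.59 times) and Phgr1 (1.36 times). This compares single libraries, with no replicate check. Agr2, a folding enzyme for mucins, had lowest, median and highest levels of 0.868, 3.92 and 18.2 normalised TPM in sham mice and 0.653, 2.40 and 3.39 in stroke mice. The fold changes of Muc2, Zg16, Tff3 and Agr2 were -1.39, -1.59, -1.42 and -1.03. Those of Fcgbp, a mucus protein, Clca1 and Spink4 were -1.61, -1.40 and -0.33. The value for Spink4 was the closest to 0 among the 35 genes, and its limma adjusted p was 0.930.

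The members that mark the follicle-associated epithelium and the crypt, Ccl20, Gp2 and Olfm4, were scarcely detected. Ccl20, the chemokine that the follicle-associated epithelium releases, ran through 0, 0.199 and 0.664 normalised TPM in sham mice and 0, 0.092 and 0.397 in stroke mice. Gp2, the bacterial receptor of M cells, reached 0.727 at most in sham and 0.376 in stroke mice, with medians of 0.257 and 0.160. Neither gene exceeded 1 normalised TPM in any mouse, and with the depth unknown no lower limit of detection can be set on such levels. Olfm4, a gene of crypt cells, had lowest, median and highest levels of 0.307, 0.488 and 2.98 in sham mice and 0.0516, 0.255 and 1.29 in stroke mice, its highest value standing alone in sham mouse 1. These 3 members did not reach a mean of 1 and were left out of the fit across genes, and their exact permutation p values were 0.457, 0.290 and 0.420. Pigr, the receptor that carries IgA from plasma cells across the epithelium into the lumen, was abundant. Its levels were 2.58, 68.0 and 174 normalised TPM in sham mice and 1.87, 7.62 and 93.2 in stroke mice. It had the lowest fold change of the 35 members, -2.17 (SE 1.18; limma adjusted p = 0.789), and the smallest exact permutation p, 0.108.

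Transcription factors of the epithelium were measured at low levels in the same mice. Cdx2 had lowest, median and highest levels of 0.042, 1.81 and 7.03 normalised TPM in sham mice and 0, 0.408 and 2.58 in stroke mice. Cdx1 was lower still, with medians of 1.25 in sham and 0.356 in stroke mice and highest values of 4.98 and 2.06. Hnf4a ran through 0.183, 7.42 and 23.6 in sham mice and 0.247, 3.60 and 18.7 in stroke mice. Elf3, an ETS family factor of epithelia, ran through 0.051, 4.88 and 19.2 in sham mice and 0.121, 1.65 and 5.92 in stroke mice. The fold changes of Cdx1, Cdx2, Hnf4a and Elf3 were -0.94, -1.01, -0.97 and -1.22. The constant of 0.5 added before the log pulls the fold changes of genes at such levels toward 0.

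From mouse to mouse the members rose and fell as a block. Over the 595 pairs of the 35 members in the fit, the median Pearson r of the log2 values across the 12 mice was 0.948, and r exceeded 0.9 in 482 pairs (81.0%). These correlations are given as a description, since all pairs share the same 12 libraries. Enterocyte genes had a median r of 0.956 among themselves, junction genes 0.973 and goblet and secretory genes 0.857. Spink4 and Agr2 followed the others least closely among the 35, with median r of 0.772 and 0.834 against the other members in the fit. Olfm4, with a median of 0.319 over all members, did not follow the order of the mice.

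**Figure D5:**
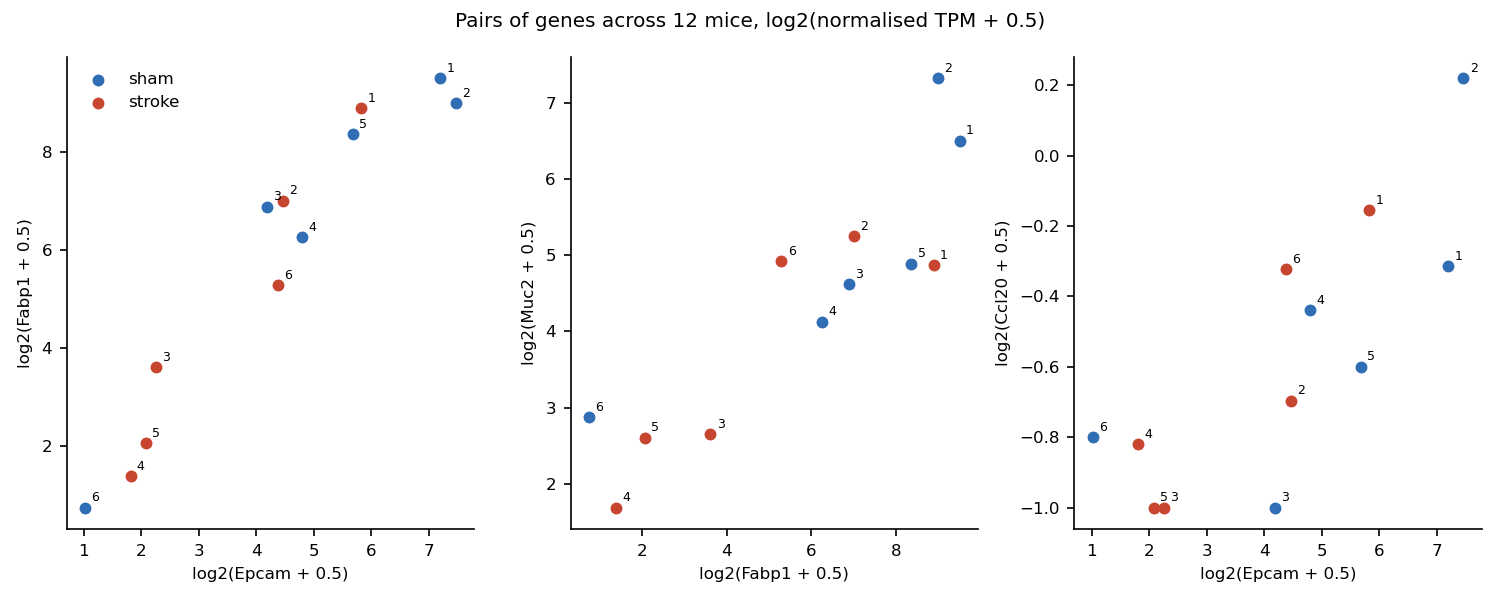
Points are the 12 mice, numbered within their group (blue, sham; red, stroke), and both axes are log2(normalised TPM + 0.5). Fabp1 rises with Epcam and Muc2 with Fabp1 over the whole range (r = 0.963 and 0.891), and Ccl20 rises with Epcam at very low levels (r = 0.802).

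Of the relations across mice, 5 were tested, each with 100000 permutations and Benjamini-Hochberg adjustment over the 5, and 4 are given here. Fabp1 and Epcam were related with r = 0.963 and rho = 0.958 (n = 12; permutation p = 1e-05 for r, the smallest that 100000 permutations can give; adjusted p = 2.5e-05). Without the mice farthest from the median of Epcam, sham mice 2 and 6, r was 0.961, and within groups it was 0.964 in sham and 0.969 in stroke mice. Muc2 and Fabp1, a goblet and an enterocyte gene, had r = 0.891 and rho = 0.839 (permutation p = 0.00017 and 0.00118; adjusted p = 0.000283 and 0.00197), with r = 0.861 after leaving out sham mouse 6 and stroke mouse 4. Within groups r was 0.860 in sham and 0.897 in stroke mice. Ccl20 and Epcam had r = 0.802 and rho = 0.824 (permutation p = 0.00184 and 0.00179; adjusted p = 0.0023 and 0.00224), r = 0.767 without sham mice 2 and 6, and r = 0.737 in sham and 0.897 in stroke mice.

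A further relation was added after the values had been seen. The first principal component of 15496 genes that belong to no epithelial list held 38.1% of their variance, and the score of the mice on it was related to Epcam with r = 0.959 and rho = 0.958 (permutation p = 1e-05 for r, adjusted p = 2.5e-05). It was 0.928 without sham mice 2 and 6, 0.987 within sham and 0.876 within stroke mice. The component is not independent of the members' pattern, since it still held unlisted genes that follow the members closely.

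Other genes varied in the same mice. Igha, the constant region of IgA made by plasma cells, was lowest in sham mouse 6 at 188 normalised TPM and highest in stroke mouse 1 at 1837. Jchain, which joins IgA into dimers, ran from 83.6 in sham mouse 6 to 969 in sham mouse 1, and Lyz2, a lysozyme of macrophages, from 16.4 to 247 in the same mice. The summed level of 8 plasma cell genes lay between 483 and 3268 normalised TPM in sham mice and between 713 and 2922 in stroke mice, and that of 10 myeloid genes between 48.2 and 304 in sham and between 49.1 and 165 in stroke mice. The 10 T cell genes summed to between 90.6 and 167 in sham and between 78.0 and 196 in stroke mice. No plasma cell, T cell or myeloid gene passed an unadjusted p of 0.05 in the limma fit between stroke and sham with all 12 mice. Without sham mouse 6, 2 of 7 plasma cell genes in the fit (Sdc1 and Jchain) and 4 of 12 B cell genes (Ms4a1, Ptprc, Cd79b and H2-Ab1), named after their values were seen, were lower in stroke, beside 8.33% of all genes, and none passed adjustment. With all 12 mice, where 1.6% of all genes were lower and 4.29% higher, 1 of 12 B cell genes was lower in stroke, Ptprc, which encodes CD45 (log2 fold change -0.33, SE 0.12, unadjusted p = 0.019), and of 4 erythroid genes in the fit 1 was higher, the globin gene Hba-a2 (2.30, SE 0.90, unadjusted p = 0.0252), both named after their values were seen and both at an adjusted p of 0.789. Their part in the epithelial differences between mice was not tested.

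Genes outside the members whose log2 level was most like the mean log2 level of the members were Cdhr2 (r = 0.997), Cdhr5 (0.995), Btnl5-ps (0.993), 2900026A02Rik (0.993) and Apob (0.992), over 12 mice. CDHR2 and CDHR5 are protocadherins that link the tips of microvilli, and Apob encodes the main protein of chylomicrons. Cdhr2 had lowest, median and highest levels of 0.354, 19.0 and 87.5 normalised TPM in sham mice and 0.234, 5.07 and 32.7 in stroke mice. In all, 473 of 15602 genes had r over 0.9 with the mean of the members. Of these, 33 were members, 41 stood on the lists of other epithelial genes and 399 on neither, and 1 gene had an r under -0.9.

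Other epithelial genes were read from 9 lists with 121 genes, of which 120 were in the table and 93 passed the filter. Lower levels in stroke were called for 1 of the 93 at an unadjusted p under 0.05, and for 1.6% of all genes tested. It was Ubd, on the list of M cell and follicle-associated genes (log2 fold change -1.85; limma adjusted p = 0.789), named after its values were seen. Without sham mouse 6, 35 of the 93 in the fit were lower, against 8.33% of all genes, and without stroke mouse 1, 15 of 94, against 2.55%, none of them after adjustment. With all 12 mice the fold change was below 0 for 68 of the 93, with a median of -0.54. Of the 25 further enterocyte genes in the fit, 24 were below 0, with a median of -1.71. Reg3b, an antimicrobial lectin, had lowest, median and highest levels of 1.31, 237 and 906 normalised TPM in sham mice and 0.0748, 11.2 and 327 in stroke mice. Rbp2, which binds retinol in enterocytes, ran through 0.6248, 129 and 625 in sham mice and 1.68, 28.4 and 390 in stroke mice. Their highest values again fell in sham mice 2 and 1.

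The further goblet cell genes did not share one direction: of 6 in the fit, 4 had a fold change above 0, with a median of 0.07. Muc13 and Muc3, which encode membrane mucins and had the highest mean levels of that list, were the other 2, at -2.04 and -1.29, and peaked in sham mouse 2 at 196 and 68.5 normalised TPM. Lypd8, a surface protein that holds bacteria off the epithelium, ran through 0.192, 35.3 and 213 in sham mice and 0.256, 4.18 and 40.6 in stroke mice. Ceacam1, an adhesion molecule that leukocytes also express, lay between 26.8 and 106 in sham and between 15.8 and 39.0 in stroke mice. Hnf4g, the paralogue of Hnf4a in the intestine, ran through 0.0859, 7.63 and 29.6 in sham mice and 0.108, 1.47 and 19.8 in stroke mice. Esrp2, a splicing factor of epithelia, stood apart from these genes with levels between 6.61 and 15.7 normalised TPM over the 12 mice, and its highest mouse was sham mouse 3. Pglyrp1 and Anxa5, on the list of M cell and follicle-associated genes, lay between 4.45 and 26.3 and between 3.48 and 15.2 normalised TPM over the 12 mice. Of the 9 genes of that list, 7 had a mean of at least 1. The correlations of Pglyrp1 and Anxa5 with the mean log2 level of the members were 0.684 and 0.635, and which cells these transcripts came from was not tested.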

How the data were processed

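Total RNA of PP B cells from 12 mice was sequenced, 6 per group. Per the labels and the methods, the authors used FastQC 0.11.9 for quality control and Trimmomatic 0.39 for adapters and low-quality bases, then estimated transcript abundance by pseudo-alignment to GRCm38 (Ensembl 102) in kallisto 0.48.0, with sleuth 0.30.0 in R 4.1.2. The deposited table holds a scaled TPM signal per gene; its columns do not share 1 sum, as plain TPM would, the scaling is not given in the sources used here, and depth is therefore unknown. The planned test for TPM was kept. Kallisto shares reads between near-identical transcripts, so levels of single Defa genes are uncertain.

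Values were mapped to groups by the replicate names in the labels. Genes with a mean of at least 1 over the 12 mice (15624 of 36175) were fitted with limma 3.58.1 in R 4.3.3 on log2(value + 0.5), two-sided, with Benjamini-Hochberg adjustment over all of them. The test was tried on simulated data. Exact permutation tests used all 924 assignments of 6 against 6. Python 3.11.15 with scipy 1.17.1 gave the correlations. Coordinates come from GENCODE M21, which held 35948 of the 36175 gene IDs and all 38 members.

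Members and lists were chosen with earlier results of these data known. Values by mouse are given for 20 fixed members, the 5 with the smallest limma p and the 5 with the highest mean. Of other lists they are given for the 2 genes with the highest mean, with Cd79a and Cdh5 added by name. Other pseudocounts, filters, scalings, sample weights, a block on replicate number and leaving out mice were tried. Leaving out sham mice 1, 2 and 6 together was added after seeing the data. So were the relation with the first principal component and the exact permutation test without sham mouse 6. 1 planned relation is not reported here, for a reason unrelated to its result.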

Additional observations from a re-analysis of the deposited data

Results flagged for a closer look

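In 56 groups of 6 values, the highest or lowest mouse was compared with the nearest of the others, and 2 mice lay far from the rest by Dixon's test at the 95% level. Chance gives about 1 in 20 groups. Fabp1 in sham mouse 6 was 1.18 normalised TPM, a gap of 0.630 of the range on the log2 scale. Olfm4 in sham mouse 1 was 2.98 normalised TPM, a gap of 0.740.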

How the results depend on the processing

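The number of members lower in stroke at an unadjusted limma p under 0.05 was 0, and also 0 with a pseudocount of 0.1 or 1, with a filter of at least 1 in every mouse, with no filter, with median-of-ratios scaling and without sham mice 1, 2 and 6. It was 1 after rescaling every mouse to a sum of 1e+06 (Cdh17; 0.767% of all genes tested), 7 with sample quality weights (4.16% of all genes tested), and 0 to 26 when single mice were left out. No member passed adjustment in any of these. Rescaling moved the median fold change of all genes tested from 0.01 to 0.13 and that of the members to -1.29. The fold change stayed below 0 for each of the 24 members fitted by name, with 455 values over the alternatives on the same side of the threshold and 36 past it. Among the other members fitted, 1 (Spink4) had a fold change above 0 without sham mouse 1, sham mouse 2 or stroke mouse 3, and 2 (Cldn4 and Spink4) without sham mice 1, 2 and 6. The difference in the log2 sum ran from -2.47 to -1.13 when single mice were left out. Other epithelial genes called in either direction numbered 1 (5.89% of all genes tested); 3 with a pseudocount of 1 (5.97%) or at least 1 in every mouse (6.12%), 5 after rescaling (3.58%), 4 with median of ratios (5.61%), 12 with weights (10 lower; 10.5%), 3 without sham mice 1, 2 and 6 (5.66%), and 0 to 35 when single mice were left out (35 without sham mouse 6 and 15 without stroke mouse 1, each lower in stroke, beside 8.33% and 2.55% of all genes lower, and 0 without stroke mouse 4). The 4 relations given passed the test under each alternative tried. Causes were not tested. Without read depth, the precision of single low values is unknown.

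Sham and stroke mice share replicate numbers in the labels. Same-numbered mice had correlations of their deviations of 0.471, 0.253, 0.150, 0.159, -0.0142 and 0.218 for numbers 1 to 6, with a mean of 0.206 against -0.0413 for other pairs, and 2 sham and 3 stroke mice were best matched by their own number. Neither the labels nor every pair linked the mice, so the numbers were not taken as pairs. With the replicate number as a block, 7 members were called lower, beside 3.25% of all genes tested, with a smallest adjusted limma p of 0.523. Of the other epithelial genes, 16 were called in either direction (15 lower), beside 9.2% of all genes tested.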

Other observations

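Other epithelial cell types were covered by separate lists, and differences between the lists were not tested. Enteroendocrine genes had a fold change, stroke minus sham, below 0 in 7 of 8, with a median of -1.52, tuft cell genes in 3 of 5 (-0.39), stem cell genes in 2 of 6 (0.10) and Paneth cell genes in 2 of 7 (0.32). The Paneth cell median was 0.03, with 3 of 7 below 0, without stroke mouse 6, and 0.59, with 0 of 7 below 0, without sham mouse 1. Among enteroendocrine genes, Gip, the incretin hormone of the upper small intestine, lay between 0.515 and 39.4 normalised TPM in sham mice and between 0 and 94.5 in stroke mice, its highest value in stroke mouse 1. Ghrl, which encodes ghrelin, lay between 15.6 and 34.6 in sham and between 24.0 and 55.4 in stroke mice, and its correlation with the mean of the 38 genes was -0.199 over 12 mice, against 0.892 for Gip. Among Paneth cell genes, Defa24, an antimicrobial defensin, lay between 12.0 and 55.7 in sham and between 15.8 and 189 in stroke mice, the highest in stroke mouse 6, and Lyz1 between 8.85 and 68.6 in sham and between 15.9 and 46.6 in stroke mice. The stem cell list was led by Rnf43, between 3.65 and 17.8 over the 12 mice, and Slc12a2, between 3.34 and 7.10. The tuft cell list was led by Rgs13, between 7.86 and 35.7, and Trpm5, between 1.10 and 7.36, while Il25 was listed at 0 in every mouse. The correlation with the mean of the 38 genes was 0.422 for Rgs13 and 0.710 for Trpm5. Which cells the transcripts of these lists came from was not tested. No gene of these 4 lists passed an unadjusted limma p of 0.05 between stroke and sham with all 12 mice. Without sham mouse 6, 4 of 8 enteroendocrine genes (Sst, Chgb, Cck and Sct) were lower in stroke (median -2.22; 8.33% of all genes), and without stroke mouse 1, 3 of 8 (Sst, Chgb and Cck; median -2.16; 2.55% of all genes), none after adjustment and each named after its values were seen.

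Of the cells outside the epithelium, H2-Ab1, a class II chain, lay between 1025 and 3059 normalised TPM over the 12 mice, with its lowest value in sham mouse 6. Lck and Cd3d, of T cells, lay between 32.6 and 54.1 and between 12.3 and 32.9. Egfl7, of endothelium, lay between 0.764 and 4.34, and the stromal genes Col1a2 and Acta2 between 0.583 and 4.50 and between 0.236 and 1.52. Itgax, of dendritic cells, lay between 3.09 and 23.4. The erythroid genes Alas2 and Hba-a2 lay between 3.62 and 10.4 and between 0 and 19.3.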
